A study of Mus musculus with 15 samples.

Results

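Amino acid transporter genes of 7 families were followed in adult mouse hippocampal neural precursor cells that overexpressed the transcription factor Atf3 or Atf4. The genes were taken by name: every row whose Ensembl identifier carries a protein-coding symbol of the families Slc1a, Slc3a, Slc6a, Slc7a, Slc36a, Slc38a or Slc43a followed by a number. This gave 63 genes of 55416 rows, with 7 in Slc1a, 2 in Slc3a, 21 in Slc6a, 15 in Slc7a, 4 in Slc36a, 11 in Slc38a and 3 in Slc43a. The rule uses names alone. The proteins of these families carry amino acids, and in Slc6a also related molecules such as creatine, taurine and the monoamine transmitters, across the plasma membrane or the membrane of lysosomes and vesicles. Several Slc7a proteins are light chains that reach the plasma membrane only when bound to an Slc3a heavy chain. Atf4 is a transcription factor of the integrated stress response, a programme known for inducing genes of amino acid uptake and synthesis when amino acids run short, and Atf3 is a related factor that stress also induces.

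The cells came from the hippocampus of female mice aged 6 weeks and were grown as adherent monolayers. They formed 3 stable lines with a piggyBac insert holding a Tet-On transactivator, driven by an SV40 promoter, and puromycin resistance: the Atf3 line and the Atf4 line also carried the coding sequence of Atf3 or Atf4 behind the TRE3G promoter, and the control line carried neither. All lines received doxycycline at 100 ng/ml when EGF and FGF were withdrawn to start differentiation, and RNA was collected 10 h later from 5 samples per line. With 1 line per construct, an effect of the transgene cannot be told apart from another difference between the lines. Nothing in the labels says that the 5 samples of a line were separate cultures, so a p-value here compares lines with the spread between samples that could be technical repeats.

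Libraries held 53.7 to 69.6 M gene-level counts each. Levels are given in CPM, counts scaled to the TMM-adjusted size of each library, with the mean ± SD over the 5 libraries of a line, and a difference is a log2 fold change ± SE. Atf3 mRNA was at 1771 to 2106 CPM in the Atf3 line, 1.14 to 1.90 CPM in the Atf4 line and 1.67 to 11.0 CPM in the control line, and Atf4 mRNA at 227 to 267 CPM, 128 to 188 CPM and 76.3 to 92.6 CPM. The Atf4 mRNA was therefore highest in the line that carried Atf3. The precursor markers Nes, Sox2, Vim, Fabp7 and Msi1 summed to 3638 to 3744 CPM in the Atf3 line, 3355 to 3445 CPM in the Atf4 line and 3055 to 3284 CPM in the control line. They did not move together: 2 were higher, 2 lower and 1 not called with Atf3, and 2, 1 and 2 with Atf4. Fabp7 was higher by 1.18 and 0.70 in the Atf3 and Atf4 lines, and Vim was lower at -0.48 and -0.23. Of other cell types, the 5 astrocyte markers summed to 102 to 114 CPM, 97.1 to 134 CPM and 223 to 261 CPM in the same order of lines, with 3 of 4 tested lower than control with Atf3 and 4 of 4 with Atf4, and Gja1 was near 0 throughout. The 8 oligodendrocyte lineage markers summed to 2921 to 3733, 3474 to 4047 and 3845 to 4417 CPM, with 7 of 7 tested lower with Atf3 and 6 of 7 with Atf4, and Mog stayed under 0.0716 CPM. Over all genes tested, 36.8% were higher and 36.3% lower with Atf3, and 31.9% were higher and 29.7% lower with Atf4. Neuronal markers summed to 1338 to 1565, 1361 to 1516 and 1643 to 1825 CPM, most of it Map2. Of these 6 genes, 1 was higher, 3 lower and 2 not called with Atf3, and 2, 3 and 1 with Atf4. Tubb3 was lower at -2.44 and -0.99 (edgeR adjusted p = 4.7e-13 and 7.9e-08) and Syt1 higher by 1.651 and 1.079 (edgeR adjusted p = 2.9e-10 and 2.8e-07) in the Atf3 and Atf4 lines. Microglial markers summed to at most 1.51 CPM, endothelial markers to 12.4 to 18.5, 18.4 to 21.5 and 44.8 to 49.1 CPM, and mural and fibroblast markers to at most 0.966 CPM. Most of the endothelial sum was Kdr, at means of 10.1, 16.4 and 44.3 CPM. Tek went the other way, higher by 1.42 and 0.87 (edgeR adjusted p = 4.5e-07 and 2.6e-04). Of the 3 endothelial markers tested, 1 was higher and 2 lower with Atf3, and 1 higher and 1 lower with Atf4. These marker levels moved between lines together with the transporters, and their part in the transporter differences was not tested. In bulk RNA, fewer cells of a type and less RNA per cell cannot be told apart.

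Summed over all 63 genes, transporter mRNA was more abundant in both overexpressing lines, in a sum that a few abundant genes dominate. The 63 genes summed to 4082 ± 182 CPM in the Atf3 line, 4044 ± 251 CPM in the Atf4 line and 2787 ± 55.9 CPM in the control line (SD, n = 5 each), and the libraries of neither overexpressing line overlapped those of the control line. The Slc7a sum, most of it Slc7a5, was 1116 ± 75.0 CPM with Atf3 and 1205 ± 149 CPM with Atf4, against 553 ± 12.7 CPM in the control line. For Slc1a the sums, most of them Slc1a3, were 955 ± 65.1 and 909 ± 91.1 CPM, against 512 ± 20.2 CPM. For Slc3a they were nearly all Slc3a2, at 538 ± 20.6 and 538 ± 37.5 CPM, against 338 ± 13.0 CPM. The Slc43a and Slc36a sums went the other way, with 42.8 ± 3.01 and 56.8 ± 7.38 CPM against 94.0 ± 4.60 CPM for Slc43a, and 54.7 ± 2.31 and 63.4 ± 1.91 CPM against 73.4 ± 1.38 CPM for Slc36a. Slc6a and Slc38a differed less, at 760.2 ± 50.5 and 707 ± 8.94 CPM against 689 ± 22.2 CPM, and at 614 ± 12.9 and 564 ± 5.88 CPM against 527 ± 4.39 CPM.

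**Figure D1:**
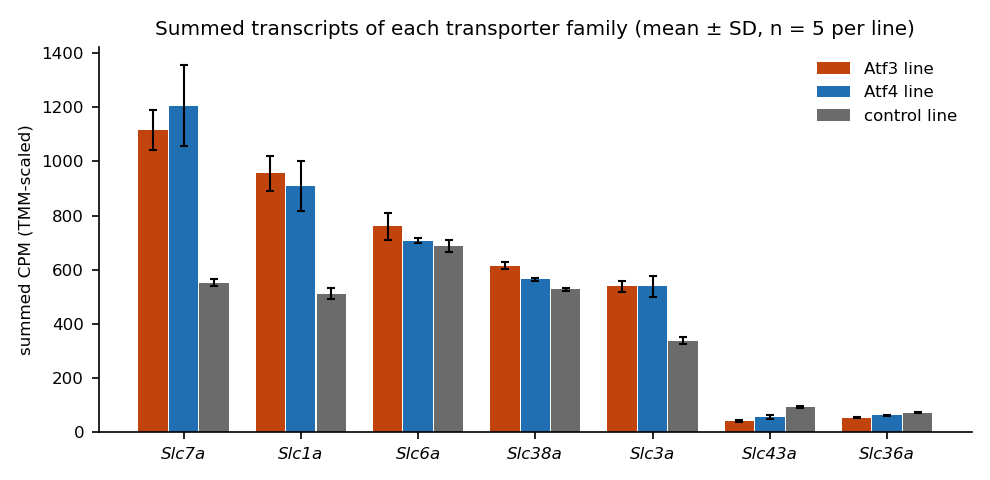
Summed CPM (vertical axis, from 0) of the genes of each family in the Atf3, Atf4 and control lines, as bars for the mean and whiskers for the SD over 5 libraries. The Slc7a, Slc1a and Slc3a bars of both overexpressing lines are above those of the control line, and the Slc43a and Slc36a bars are below them.

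Of the 63 genes, 36 passed the filter on low counts and were tested among 18244 genes with edgeR's quasi-likelihood test, with p-values adjusted over all of these and a call at an adjusted p under 0.05. In the Atf3 line 18 of the 36 were called higher than in the control line, where 36.8% of all tested genes were, and 14 were called lower, where 36.3% were. At least 2-fold higher were 6, against 7.12% of all tested genes, and at least 2-fold lower were 8, against 10.4%. In the Atf4 line 18 were called higher than in control, where 31.9% of all genes were, and 13 lower, where 29.7% were. Of these 6 were at least 2-fold higher, against 4.19% of all genes, and 0 at least 2-fold lower, against 4.83%. The genes called lower made up 38.9% of the 36 with Atf3 and 36.1% with Atf4. The median log2 fold change of the 36 genes was 0.19 with Atf3 and 0.06 with Atf4, where all tested genes had medians of -0.0175 and -0.000849. The median size of the change, whatever its sign, was 0.81 and 0.69, against 0.41 and 0.29 over all tested genes. The comparisons with control share the control libraries. Slc3a1 passed the filter only through the control line and Slc6a17 only through the overexpressing lines, so both had to differ. The counts and medians above still include both genes. Slc6a17 is among the genes called higher, and those at least 2-fold higher, in both lines. Slc3a1 is among the genes called lower in both lines and among those at least 2-fold lower with Atf3.

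**Figure D2:**
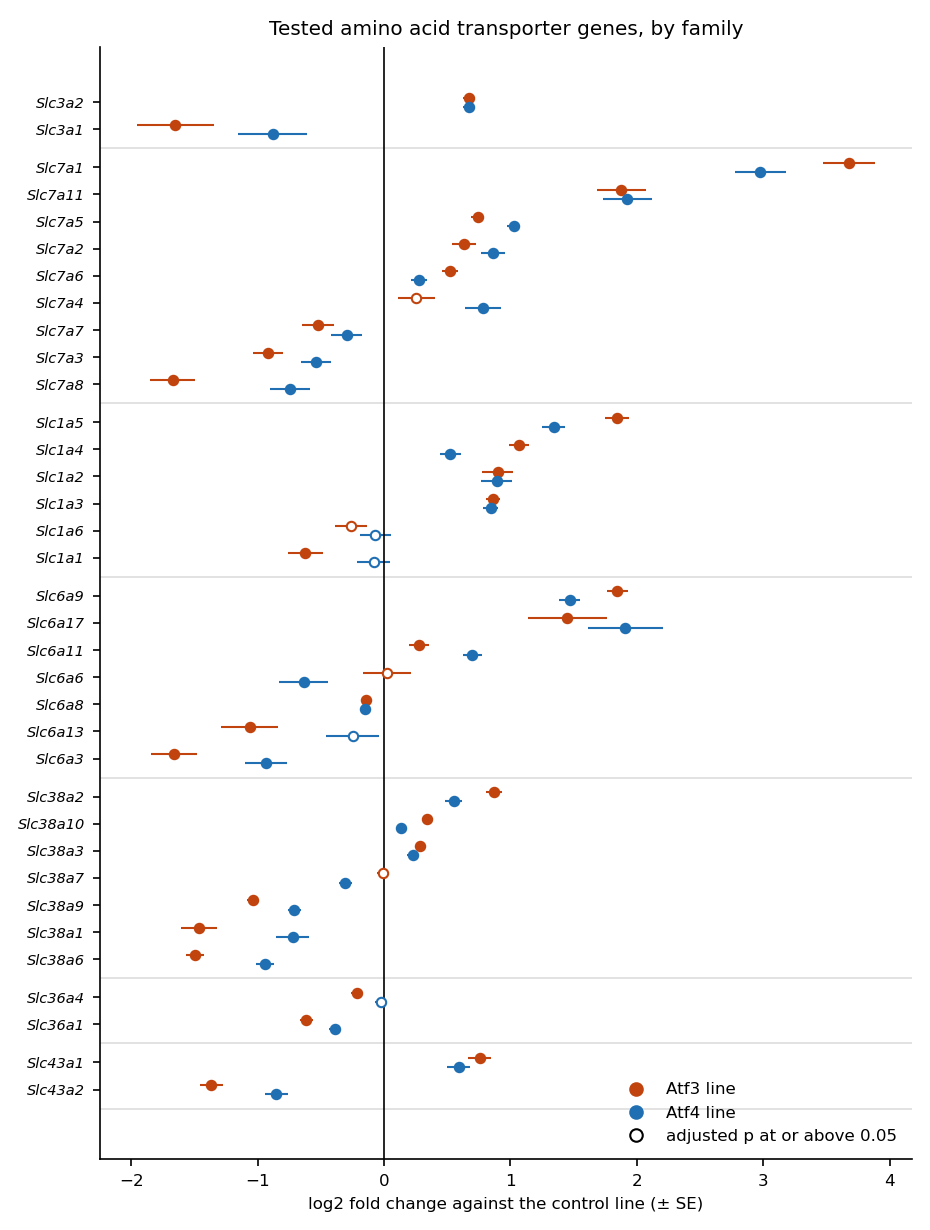
Log2 fold change against the control line (horizontal axis, ± SE) of 35 tested transporter genes, grouped by family, with the Atf3 line and the Atf4 line as separate points and open points for genes not called. Slc7a1 lies farthest to the right in both lines, at 3.68 and 2.98, and each family except Slc36a has points on both sides of 0.

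The heavy chain gene Slc3a2, which encodes CD98, the partner of most light chains, had 547, 508, 563, 544 and 529 CPM in the Atf3 libraries, 499, 513, 553, 532 and 595 CPM in the Atf4 libraries, and 340.1, 322, 331, 339 and 357 CPM in the control libraries. All libraries of both overexpressing lines lay above all control libraries. The change was 0.67 ± 0.04 in the Atf3 line (edgeR adjusted p = 1.2e-10) and 0.67 ± 0.04 in the Atf4 line (edgeR adjusted p = 3.1e-10), with -0.00 ± 0.04 between the Atf4 and Atf3 lines. The other heavy chain gene, Slc3a1, whose product serves cystine uptake in kidney and gut, was barely detected, at 0.0372 to 0.146 CPM in the Atf3 line, 0.108 to 0.175 CPM in the Atf4 line and 0.193 to 0.340 CPM in the control line. It shares 26.5% of its exon bases with Prepl on the opposite strand.

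Among the light chains, the most abundant and the most induced gene were different ones. Slc7a5 encodes the exchanger that brings leucine and other large neutral amino acids into the cell. It had 832, 742, 869, 829.6 and 790.1 CPM in Atf3 libraries, 937, 901, 1010.4, 986 and 1110.0 CPM in Atf4 libraries, and 492, 460.5, 486, 494 and 497 CPM in control libraries. The 3 lines did not overlap, with the Atf4 line highest. Against the control line, Slc7a5 was 0.74 ± 0.05 higher in the Atf3 line (edgeR adjusted p = 1.9e-10) and 1.02 ± 0.05 higher in the Atf4 line (edgeR adjusted p = 8.1e-12), and the Atf4 line exceeded the Atf3 line by 0.28 ± 0.05 (edgeR adjusted p = 2e-04). Per kilobase of exon, the ratio of Slc7a5 to Slc3a2 mRNA was 1.44 ± 0.03 in the Atf3 line, 1.748 ± 0.047 in the Atf4 line and 1.37 ± 0.03 in the control line. The Atf4 ratios, 1.67 to 1.79, lay above all others, while those of the Atf3 line, 1.39 to 1.47, overlapped the control range of 1.33 to 1.40.

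Slc7a11 encodes the exchanger that imports cystine for glutathione synthesis and releases glutamate. Its levels were 20.9, 18.4, 25.7, 19.2 and 22.8 CPM in Atf3 libraries, 15.2, 16.2, 18.7, 23.4 and 37.4 CPM in Atf4 libraries, and 5.65, 5.80, 6.24, 6.31 and 5.12 CPM in control libraries. Both overexpressing lines lay above the control line in all libraries, and the Atf4 libraries spread around those of the Atf3 line on both sides. The changes were 1.88 ± 0.20 (3.68-fold, edgeR adjusted p = 6.8e-08) and 1.93 ± 0.19 (3.799-fold, edgeR adjusted p = 9.5e-08), and the difference between the Atf4 and Atf3 lines, 0.05 ± 0.18, was not called. Without Atf4 replicate 5, the library with the highest value, the Atf4 line was 3.12-fold above control, and its difference from the Atf3 line turned to -0.22, still not called (edgeR adjusted p = 0.113).

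The remaining light chains were split in direction. Slc7a6, which exchanges arginine for glutamine and sodium, was at 37.0 ± 1.89 CPM in the Atf3 line, 31.2 ± 3.63 CPM in the Atf4 line and 25.8 ± 0.821 CPM in the control line, with changes of 0.52 ± 0.06 and 0.27 ± 0.06 (edgeR adjusted p = 5.2e-07 and 9.8e-04). Slc7a8, another exchanger of large neutral amino acids, had 0.388, 0.619, 0.351, 0.596 and 0.308 CPM in Atf3 libraries, 0.988, 0.646, 0.937, 0.928 and 0.808 CPM in Atf4 libraries, and 1.41, 1.49, 1.44, 1.42 and 1.42 CPM in control libraries. The lines did not overlap. It was lower with Atf3, at -1.67 ± 0.18, and with Atf4, at -0.74 ± 0.16 (edgeR adjusted p = 8.4e-08 and 5.5e-04), a difference of 0.93 ± 0.19 between the Atf4 and Atf3 lines (edgeR adjusted p = 5.7e-04). Slc7a7, the close relative of Slc7a6, was at 1.40 ± 0.292, 1.64 ± 0.129 and 2.01 ± 0.161 CPM in the Atf3, Atf4 and control lines. Its call in the Atf4 line (-0.30 ± 0.12, edgeR adjusted p = 0.0476) did not outlast leaving out any one of control replicates 1, 3 and 4, Atf3 replicates 1, 2 and 3 or Atf4 replicates 1, 2 and 3, where the adjusted p was 0.0565 to 0.0864. In the Atf3 line Slc7a7 fell by 0.52 ± 0.13 (edgeR adjusted p = 0.0012).

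Promoter windows from RefSeq (build GRCm38.p6, 250 bases before to 50 after an annotated start) were found for 45 of the 63 genes, 26 of them tested. They were searched on both strands for TGATGNAA, the core of the composite element that Atf4 is known to bind with C/EBP factors. The other motifs were TGANTCA, which covers the AP-1 site, and TGACGTCA, the cyclic AMP response element. The last pair read the same on both strands, and the 3 motifs cannot match the same bases. Slc7a5, Slc1a5 and Slc38a1 were among the genes without a window. Of all 32851 windows, 3.97% held TGATGNAA, 7.81% TGANTCA and 1.79% TGACGTCA. The 45 genes had 66 windows, of which 5, 9 and 1 held these motifs. A gene can have several windows, so the counts of genes that follow cannot be set against shares of windows. Among the tested transporters TGATGNAA stood in windows of 3 genes, Slc7a11, Slc7a7 and Slc1a4, TGANTCA in those of 5, Slc7a1, Slc6a17, Slc38a7, Slc38a10 and Slc3a1, and TGACGTCA in that of Slc38a6. A match is a stretch of letters and not a measured binding site. The windows of the light chains are shown because one gene with a match was called higher in both lines and the other was not. Both lie on the minus strand, the stretches are written 5′ to 3′ along the gene, capitals mark TGATGNAA or its reverse complement, and positions count from the start at 1. For Slc7a11 the stretch is chr3:50443634-50443703, positions -90 to -21, with matches at -66 and, on the opposite strand, at -47. For Slc7a7 it is chr14:54418055-54418104, positions -160 to -111, with a match at -141. Slc7a7 had another match, outside the stretch shown, at -1 to 7 from this start, and counted from another annotated start of the gene these same bases are -243 to -236.
Slc7a11: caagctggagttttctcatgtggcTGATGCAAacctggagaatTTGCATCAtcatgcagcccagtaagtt
Slc7a7: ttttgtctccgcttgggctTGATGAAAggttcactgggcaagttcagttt

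The cationic carriers, which take up arginine, lysine and ornithine, held the largest change of all 36 genes. Slc7a1, the broadly expressed member of the group (chromosome 5, 148327410 to 148399904, minus strand, GRCm38), had 223, 192, 262, 211 and 234 CPM in the Atf3 libraries, 83.9, 102, 123, 150.4 and 231 CPM in the Atf4 libraries, and 15.6, 18.4, 18.8, 17.9 and 17.02 CPM in the control libraries. Every library of both overexpressing lines lay far above the control line, and only Atf4 replicate 5 reached into the Atf3 range. Slc7a1 was 12.8-fold higher in the Atf3 line (3.68 ± 0.21, edgeR adjusted p = 1.3e-11) and 7.87-fold higher in the Atf4 line (2.98 ± 0.20, edgeR adjusted p = 4.3e-10) than in the control line. The Atf4 line was below the Atf3 line, at -0.70 ± 0.18 (edgeR adjusted p = 0.0044), and at -0.96 without Atf4 replicate 5. Without that library the Atf4 line was 6.49-fold above control.

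**Figure D3:**
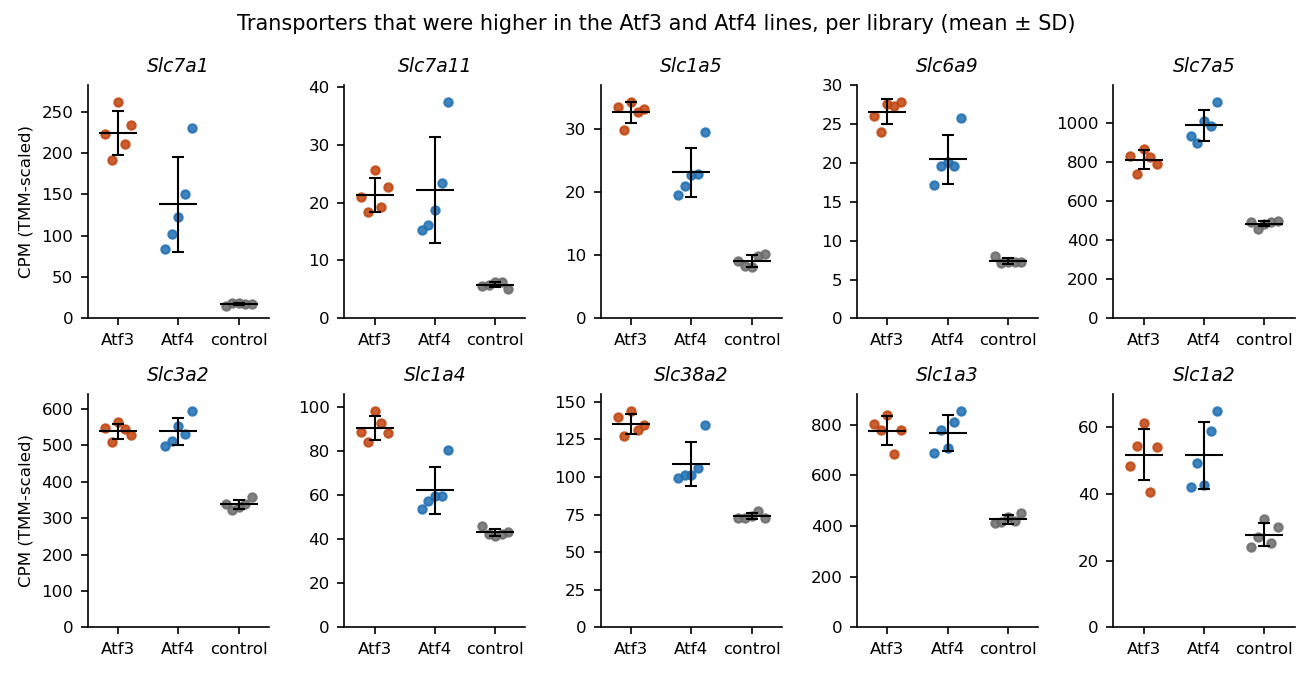
CPM (vertical axes, from 0) of 10 transporter genes in each library of the Atf3, Atf4 and control lines, with the mean and SD in black. The genes were picked for being higher in both overexpressing lines, so their shared direction is no result. All libraries of both overexpressing lines lie above the control libraries in each of the 10 panels, and in the Slc7a1 and Slc7a11 panels the Atf4 libraries spread from 83.9 to 231 CPM and from 15.2 to 37.4 CPM.

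The other cationic carriers changed less or in the opposite direction. Slc7a2, known for induction in activated cells, was at 16.1 ± 1.44 CPM in the Atf3 line, 18.9 ± 2.57 CPM in the Atf4 line and 10.4 ± 1.12 CPM in the control line, higher by 0.63 ± 0.09 and 0.86 ± 0.09 (edgeR adjusted p = 5.5e-06 and 1.7e-07). Slc7a3, a neuronal arginine carrier, had 1.15 to 1.90 CPM in the Atf3 line, 1.68 to 2.26 CPM in the Atf4 line and 2.70 to 3.09 CPM in the control line, lower at -0.91 ± 0.12 and -0.54 ± 0.12 (edgeR adjusted p = 1.4e-06 and 5.3e-04). Slc7a4, whose transport activity is not established, was higher only in the Atf4 line by the test, with 1.20 to 1.68 CPM against 0.816 to 0.963 CPM (0.78 ± 0.14, edgeR adjusted p = 1.1e-04). In the Atf3 line it ranged from 0.730 to 1.29 CPM, and its change of 0.26 ± 0.15 was called without Atf3 replicate 5 alone (0.37, edgeR adjusted p = 0.0208). The makeup of the group shifted accordingly: per kilobase of exon Slc7a1 made up 88.9 ± 0.909% of the mRNA of Slc7a1 to Slc7a4 in the Atf3 line, 78.9 ± 4.998% in the Atf4 line and 42.0 ± 1.98% in the control line. In the control line Slc7a2 held another 31.4 ± 2.37% and Slc7a3 20.7 ± 1.34%.

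The promoter stretch of Slc7a1, shown as that of the most changed gene, is chr5:148399995-148400054 on the minus strand, positions -150 to -91. It holds a TGANTCA match, in capitals, at -123.
Slc7a1: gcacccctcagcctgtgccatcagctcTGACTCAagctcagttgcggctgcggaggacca

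Within Slc1a, the neutral exchangers and the glial glutamate carriers were higher in both lines. Slc1a5, which exchanges glutamine, had 33.4, 29.9, 34.2, 32.6 and 33.0 CPM in Atf3 libraries, 19.6, 20.9, 22.6, 22.8 and 29.5 CPM in Atf4 libraries, and 9.01, 8.25, 8.12, 9.88 and 10.2 CPM in control libraries. The 3 lines did not overlap, with the Atf3 line highest. Its changes were 1.84 ± 0.09 and 1.34 ± 0.09 (3.58-fold and 2.53-fold, edgeR adjusted p = 3.4e-12 and 6e-10), and the Atf4 line was below the Atf3 line, at -0.50 ± 0.09 (edgeR adjusted p = 1.7e-04). Slc1a4, an exchanger of alanine, serine and cysteine that supplies serine in brain, had 88.8, 84.1, 98.3, 92.9 and 88.2 CPM in Atf3 libraries, 53.7, 57.5, 59.5, 59.5 and 80.6 CPM in Atf4 libraries, and 46.0, 42.4, 41.5, 42.4 and 43.4 CPM in control libraries. Here too the lines were separate in the same order. The changes were 1.07 ± 0.08 and 0.53 ± 0.08 (edgeR adjusted p = 7.7e-10 and 1.5e-05), with -0.54 ± 0.08 between the Atf4 and Atf3 lines (edgeR adjusted p = 3.1e-05).

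The Slc1a4 stretch is shown as that of the other gene with TGATGNAA that was called higher in both lines. Its match, on the opposite strand, runs from -4 to 4. The stretch is chr11:20332710-20332763 on the minus strand, positions -50 to 4.
Slc1a4: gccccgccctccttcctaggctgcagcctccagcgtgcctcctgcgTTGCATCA

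Slc1a3, the glutamate transporter of radial glia and astrocytes, had 802, 781, 838, 685 and 778 CPM in Atf3 libraries, 687, 777, 708, 809 and 855 CPM in Atf4 libraries, and 411, 415, 437, 419 and 453 CPM in control libraries. Both overexpressing lines lay above the control line and overlapped each other. The changes were 0.86 ± 0.06 and 0.84 ± 0.06 (edgeR adjusted p = 1.8e-10 and 6.2e-10). Slc1a2, the main glutamate transporter of mature astrocytes, was at 51.7 ± 7.68 CPM in the Atf3 line, 51.5 ± 10.04 CPM in the Atf4 line and 27.8 ± 3.42 CPM in the control line, higher by 0.90 ± 0.12 and 0.89 ± 0.12 (edgeR adjusted p = 2.4e-06 and 4.3e-06). Of the astrocyte markers, Gfap was at 53.2 to 58.9 CPM in the Atf3 line, 59.2 to 76.5 CPM in the Atf4 line and 121 to 143 CPM in the control line, the opposite order. Among the precursor markers, Fabp7 was higher in the Atf3 and Atf4 lines, by 1.18 and 0.70, and Vim lower, at -0.48 and -0.23. A link of these markers to the glutamate carriers was not tested. The neuronal glutamate carrier gene Slc1a1, which shares 31.9% of its exon bases with 4430402I18Rik, was lower in the Atf3 line only by the test, at 1.51 ± 0.209 CPM there, 2.20 ± 0.382 CPM in the Atf4 line and 2.32 ± 0.332 CPM in the control line (-0.62 ± 0.14, edgeR adjusted p = 5.6e-04, and -0.08 ± 0.13). The Atf4 line exceeded the Atf3 line by 0.54 ± 0.14 (edgeR adjusted p = 0.0044). Slc1a6, the glutamate carrier known from cerebellar Purkinje cells, was at 1.54 to 2.70, 2.16 to 2.66 and 2.27 to 2.99 CPM and was not called. In the Atf3 line it was called without control replicate 2 (-0.32), control replicate 5 (-0.31) or Atf3 replicate 1 (-0.35). With all libraries it was called there under DESeq2 (-0.27), plain library totals (-0.40) and a filter at 1 CPM in 5 libraries (-0.32).

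Of 8 tested Slc6a genes, 4 were higher and 3 lower than control with Atf3, and 3 higher and 3 lower with Atf4. The higher genes include Slc6a17 in both lines, which had to differ because of the filter. Among all tested genes 36.8% were higher and 36.3% lower with Atf3, and 31.9% higher and 29.7% lower with Atf4. Slc6a9, the glycine transporter that glia and glutamatergic neurons use, had 26.1, 23.9, 27.6, 27.3 and 27.8 CPM in Atf3 libraries, 17.1, 19.6, 20.1, 19.6 and 25.7 CPM in Atf4 libraries, and 8.03, 7.09, 7.29, 7.21 and 7.27 CPM in control libraries. The control line was below all other libraries, and Atf4 replicate 5 alone reached the Atf3 range. Slc6a9 was 2.77-fold higher in the Atf4 line than in the control line (1.47 ± 0.08, edgeR adjusted p = 5.2e-11) and 3.60-fold higher in the Atf3 line. The Atf4 line was below the Atf3 line, at -0.38 ± 0.08 (edgeR adjusted p = 7.9e-04). Slc6a9 shares 27.8% of its exon bases with Ccdc24 on the opposite strand, and since the library kit did not mark strand, reads from the shared bases cannot be told apart.

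Slc6a11, the GABA transporter of astrocytes, had 47.5, 49.3, 54.6, 40.1 and 47.8 CPM in Atf3 libraries, 66.5, 68.8, 58.8, 65.1 and 61.9 CPM in Atf4 libraries, and 35.7, 36.3, 42.8, 37.3 and 45.5 CPM in control libraries. It was highest in the Atf4 line, without overlap, while the Atf3 and control lines overlapped. The changes against control were 0.70 ± 0.08 in the Atf4 line (edgeR adjusted p = 2.4e-07) and 0.28 ± 0.08 in the Atf3 line (edgeR adjusted p = 0.0033, and 0.104 with libraries scaled by plain totals, which moved the median of all genes to -0.155).

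Slc6a8, the creatine carrier, was at 79.1 ± 1.71 CPM with Atf3 and 78.5 ± 3.04 CPM with Atf4, against 87.1 ± 2.43 CPM in the control line, lower at -0.14 ± 0.03 and -0.15 ± 0.03 (edgeR adjusted p = 9.3e-04 and 6.9e-04). Several scarce Slc6a genes also differed. Slc6a3, the dopamine transporter, had 0.462, 0.509, 0.387, 0.335 and 0.357 CPM in Atf3 libraries, 0.803, 0.758, 0.694, 0.613 and 0.521 CPM in Atf4 libraries, and 1.49, 1.13, 1.44, 0.935 and 1.51 CPM in control libraries. The lines did not overlap, and the changes were -1.66 ± 0.18 and -0.93 ± 0.17 (edgeR adjusted p = 1.3e-07 and 8.9e-05). Slc6a17, a neutral amino acid carrier of synaptic vesicles, was at 0.158 to 0.276 CPM, 0.210 to 0.413 CPM and 0.0527 to 0.119 CPM. Since Slc6a17 passed the filter only through the overexpressing lines, it had to differ, and its difference is no finding. The taurine carrier gene Slc6a6 was lower in the Atf4 line, at 0.401 to 0.590 CPM against 0.580 to 0.994 CPM in the control line (-0.64 ± 0.20, edgeR adjusted p = 0.0091), with 0.633 to 0.987 CPM in the Atf3 line (0.02 ± 0.19). Slc6a13, which carries GABA and taurine, was lower in the Atf3 line, at 0.281 to 0.552 CPM against 0.738 to 1.22 CPM (-1.06 ± 0.23, edgeR adjusted p = 3.5e-04), and at 0.521 to 1.03 CPM in the Atf4 line (-0.25 ± 0.21).

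Slc38a genes encode sodium-coupled carriers of glutamine and other small neutral amino acids, and their members moved in both directions. Slc38a2, the carrier known to be induced when amino acids are scarce, had 139.6, 127, 144, 131 and 135 CPM in Atf3 libraries, 99.4, 101, 102, 106 and 135 CPM in Atf4 libraries, and 73.0, 73.1, 73.9, 77.5 and 73.0 CPM in control libraries. Both overexpressing lines lay above the control line, and only Atf4 replicate 5 was as high as the Atf3 libraries. The changes were 0.87 ± 0.07 and 0.55 ± 0.07 (edgeR adjusted p = 7.5e-10 and 7.1e-07), with -0.32 ± 0.06 between the Atf4 and Atf3 lines (edgeR adjusted p = 6.7e-04). Slc38a3, the glutamine carrier of astrocytes, was at 258 ± 11.8, 248 ± 17.9 and 212 ± 4.37 CPM in the Atf3, Atf4 and control lines, higher by 0.29 ± 0.04 and 0.23 ± 0.04 (edgeR adjusted p = 1.1e-05 and 2.1e-04). Slc38a10, a less studied member, was at 151 ± 6.88, 131 ± 3.05 and 119 ± 3.28 CPM, higher by 0.34 ± 0.03 and 0.14 ± 0.03 (edgeR adjusted p = 4.5e-08 and 0.0019).

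Slc38a6 showed the clearest fall of the family. It had 16.7, 19.9, 18.6, 19.2 and 21.9 CPM in Atf3 libraries, 28.8, 27.6, 28.8, 28.4 and 27.4 CPM in Atf4 libraries, and 53.6, 59.3, 53.1, 59.7 and 45.5 CPM in control libraries. The lines did not overlap, and the changes were -1.49 ± 0.07 and -0.94 ± 0.07 (edgeR adjusted p = 1.7e-12 and 1.5e-09), with 0.55 ± 0.07 between the Atf4 and Atf3 lines (edgeR adjusted p = 9.2e-06). Slc38a9, the lysosomal arginine sensor that acts on mTORC1, had 14.5, 16.0, 15.2, 13.8 and 17.2 CPM in Atf3 libraries, 20.01, 19.4, 19.2, 18.9 and 18.9 CPM in Atf4 libraries, and 31.1, 32.3, 33.1, 30.8 and 30.4 CPM in control libraries. These lines were separate as well, with changes of -1.04 ± 0.05 and -0.71 ± 0.05 (edgeR adjusted p = 2.6e-12 and 8.8e-10). Slc38a1, a glutamine carrier of neurons, was scarce, with 0.832, 1.04, 1.04, 0.968 and 0.909 CPM in Atf3 libraries, 2.15, 1.53, 1.42, 1.45 and 1.42 CPM in Atf4 libraries, and 3.03, 2.54, 3.11, 2.33 and 2.21 CPM in control libraries. The lines did not overlap. It was lower than control at -1.46 ± 0.14 in the Atf3 line (edgeR adjusted p = 2.5e-08) and at -0.72 ± 0.13 in the Atf4 line (edgeR adjusted p = 1.1e-04), and the Atf4 line exceeded the Atf3 line by 0.74 ± 0.15 (edgeR adjusted p = 5.4e-04). Slc38a7, a lysosomal glutamine exporter, was lower in the Atf4 line, at 26.4 to 30.7 CPM there against 31.6 to 35.6 CPM in the control line (-0.30 ± 0.05, edgeR adjusted p = 2.5e-05), with 32.5 to 36.7 CPM in the Atf3 line (-0.01 ± 0.05, and -0.15 with plain totals, adjusted p = 0.00822). Between the Atf4 and Atf3 lines its difference was -0.29 ± 0.05 (edgeR adjusted p = 1e-04).

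The window of Slc38a6, shown because it is the one tested gene with the full cyclic AMP response element, gave chr12:73286698-73286757 on the plus strand, positions -150 to -91. TGACGTCA, in capitals, starts at -121.
Slc38a6: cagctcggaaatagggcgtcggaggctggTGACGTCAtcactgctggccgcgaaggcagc

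**Figure D4:**
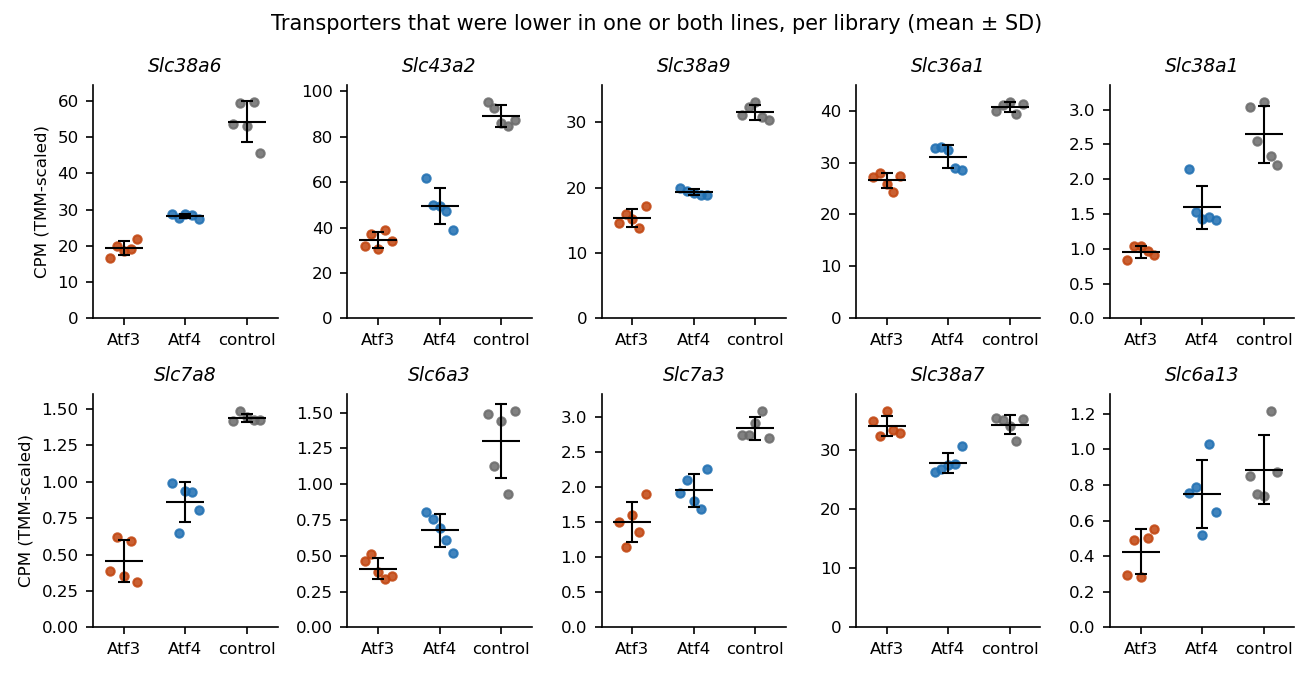
CPM (vertical axes, from 0) of 10 further transporter genes in each library of the Atf3, Atf4 and control lines, with the mean and SD in black. These were picked for being lower in one or both overexpressing lines, so their shared direction is no result. In the panels of Slc38a6, Slc43a2, Slc38a9, Slc36a1, Slc38a1, Slc7a8, Slc6a3 and Slc7a3 the control libraries are highest, Slc38a7 is lowest in the Atf4 line, and Slc6a13 has its lowest mean in the Atf3 line.

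Of the 4 tested genes of the proton-coupled Slc36a and facilitative Slc43a families, 3 were lower and 1 higher than control with Atf3, and 2 lower and 1 higher with Atf4. Over all tested genes 36.3% were lower and 36.8% higher with Atf3, and 29.7% lower and 31.9% higher with Atf4. Counts of so few genes show no trend of a family. Slc36a1, a proton-coupled carrier of lysosomes and the plasma membrane, was at 26.6 ± 1.45 CPM in the Atf3 line, 31.1 ± 2.17 CPM in the Atf4 line and 40.7 ± 1.02 CPM in the control line, lower at -0.61 ± 0.05 and -0.38 ± 0.05 (edgeR adjusted p = 1.6e-09 and 1.5e-06). Slc36a4, its relative, was lower in the Atf3 line, at 28.2 ± 1.29 CPM against 32.7 ± 1.59 CPM (-0.22 ± 0.05, edgeR adjusted p = 4.8e-04), and at 32.2 ± 1.83 CPM in the Atf4 line (-0.02 ± 0.05). Slc43a2, a facilitative carrier of large neutral amino acids, had 32.1, 37.2, 30.5, 39.1 and 34.1 CPM in Atf3 libraries, 61.6, 49.8, 49.5, 47.1 and 39.1 CPM in Atf4 libraries, and 95.3, 92.7, 85.8, 84.5 and 87.3 CPM in control libraries. The control line was highest without overlap, and Atf4 replicate 5 was the lowest of its line, in the Atf3 range. The changes were -1.37 ± 0.09 and -0.85 ± 0.09 (edgeR adjusted p = 1.2e-10 and 1.3e-07), and the Atf4 line exceeded the Atf3 line by 0.52 ± 0.09 (edgeR adjusted p = 1.6e-04). Slc43a1, which carries the same substrates, went the other way, at 8.21 ± 0.651, 7.32 ± 0.874 and 4.85 ± 0.551 CPM, higher by 0.76 ± 0.09 and 0.59 ± 0.09 (edgeR adjusted p = 4.2e-07 and 1.5e-05).

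Set against each other, the overexpressing lines differed in many of these genes, and by less than 2-fold in each. In the Atf4 line 15 of the 36 genes were higher than in the Atf3 line, where 19.7% of all tested genes were, and 10 were lower, where 23.9% were. Neither direction held a gene that differed at least 2-fold, against 2.31% of all genes higher and 0.954% lower. The median difference was 0.20 among the 36 genes and 0.00701 among all genes tested. The largest called differences upwards were those of Slc7a8, Slc6a13, Slc38a1 and Slc6a3, at 0.93, 0.81, 0.74 and 0.73, all of them lower in the Atf3 line than in control. The largest downwards were those of Slc7a1, Slc6a6, Slc1a4 and Slc1a5, at -0.70, -0.66, -0.54 and -0.50. Slc7a5 and Slc6a11 were higher than control in both lines and higher in the Atf4 than in the Atf3 line. Slc7a2 was in the same position by the test (0.23 ± 0.09, edgeR adjusted p = 0.0452), but that call was lost without control replicate 1, Atf3 replicate 1, 2, 4 or 5 or Atf4 replicate 4 or 5, at an adjusted p of 0.052 to 0.124. The Slc7a3 difference of 0.38 was lost without Atf3 replicate 2 (0.29, edgeR adjusted p = 0.0547). Calls were gained for Slc3a1 without Atf3 replicate 2 (1.03), for Slc7a7 without Atf3 replicate 4 (0.33) and for Slc43a1 without Atf4 replicate 5 (-0.23).

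The Atf4 libraries were unequal. Atf4 mRNA was at 128, 147, 150, 154 and 188 CPM in replicates 1 to 5, and replicate 5 was the highest Atf4 library for 13 of the 18 transporters called higher than control (72.2%). Over all 5821 genes called higher in the Atf4 line it was the highest for 45.6%. Of the 13 transporters called lower, replicate 5 was the lowest for 6 (46.2%), and of all 5425 genes called lower for 46.2%. Without replicate 5 the change of Slc1a5 in the Atf4 line was 1.22, that of Slc6a9 1.36, that of Slc1a4 0.40 and that of Slc38a2 0.45, all still called.

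Levels of different genes were compared per kilobase of exon. Slc7a5 ranked first in every line, at 219 ± 13.1, 267 ± 21.6 and 131 ± 3.97 CPM per kilobase in the Atf3, Atf4 and control lines, and Slc3a2 second, at 153 ± 5.85, 153 ± 10.6 and 95.7 ± 3.70. Their ranges did not overlap within a line. Slc1a3 was at 91.0 ± 6.64, 89.9 ± 8.18 and 50.04 ± 2.05 in the same order of lines, and Slc38a3 at 49.0 ± 2.24, 47.0 ± 3.40 and 40.1 ± 0.827. Below these, Slc38a10 overlapped with Slc1a4 and Slc1a4 with Slc7a1 in the Atf3 line, while in the control line Slc43a2, Slc38a2, Slc38a7, Slc6a11, Slc36a1 and Slc38a6 each overlapped the next. Slc7a1 was at 19.5 ± 2.27 CPM per kilobase in the Atf3 line.

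**Figure D5:**
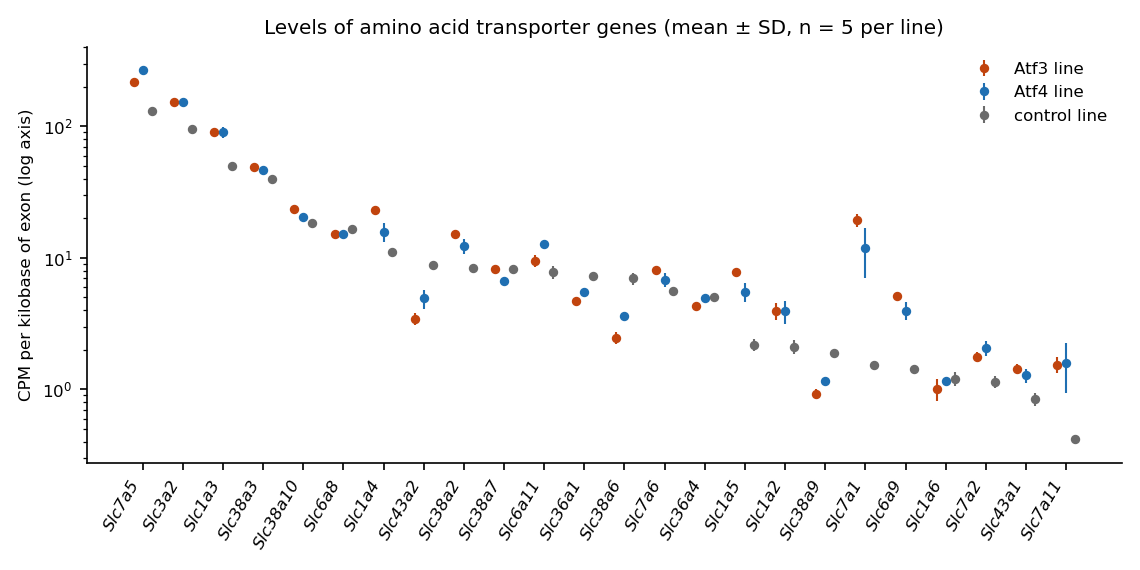
CPM per kilobase of exon (vertical log axis, mean ± SD over 5 libraries) of 24 transporter genes that reached 1 in at least one line, ordered by the control line, with the Atf3, Atf4 and control lines as separate points. Slc7a5 and Slc3a2 are highest in each line, and Slc7a1 stands well above its control point in both overexpressing lines.

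The other 27 genes were too low to test, with line means of at most 0.182 CPM, the value of the small neutral amino acid exchanger gene Slc7a10. They include Slc6a2 and Slc6a4, the noradrenaline and serotonin transporters, at line means of up to 0.157 and 0.0439 CPM, and Slc6a12, a betaine and GABA carrier, at up to 0.166 CPM. Slc6a5, Slc6a18, Slc7a13 and Slc7a15 had 0 counts in all 15 libraries. An approximate upper limit of 3 counts, taken for an observed 0, would be 0.0431 to 0.0559 CPM of plain library totals, depending on the library. This covers counting error only.

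Amino acid carriers outside the 7 families were followed in a list of 20 genes, 17 of them tested. In the Atf3 line 10 were higher than control, 3 lower and 4 not called, with a median log2 fold change of 0.44, where 36.8% of all tested genes were higher and 36.3% lower. In the Atf4 line 10 were higher, 4 lower and 3 not called, with a median of 0.30, where 31.9% of all tested genes were higher and 29.7% lower. The serine carrier Sfxn1 of mitochondria was at 208 to 240 CPM in the Atf3 line, 200 to 211 CPM in the Atf4 line and 140 to 150 CPM in the control line, higher by 0.61 ± 0.04 and 0.51 ± 0.04 (edgeR adjusted p = 3.4e-11 and 1.1e-09). The mitochondrial aspartate and glutamate carrier Slc25a12 was higher by 0.54 ± 0.04 and 0.49 ± 0.04 (edgeR adjusted p = 1.1e-10 and 1e-09). The lysosomal cystine exporter Ctns, named after its values were seen, was at 17.6 to 18.8, 19.5 to 29.4 and 36.5 to 37.4 CPM, lower at -1.03 ± 0.07 and -0.57 ± 0.07 (edgeR adjusted p = 4.5e-10 and 2e-06). Of 6 genes whose products bind or regulate these transporters, 4 were tested. Cd44, whose product stabilises the Slc7a11 protein, was at 61.4 to 75.7, 52.6 to 63.7 and 43.5 to 44.8 CPM, higher by 0.65 ± 0.05 and 0.38 ± 0.05 (edgeR adjusted p = 2.5e-09 and 5.6e-06). Arl6ip5, which restrains glutamate uptake by Slc1a1, was lower at -0.34 ± 0.05 in both lines (edgeR adjusted p = 5.6e-06 and 1.1e-05).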

How the data were processed

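The deposited table holds raw counts per gene that the authors made for 15 libraries, whole numbers that are not normalized. The submitters' processing notes name STAR, edgeR and mm10. Their versions, how reads were counted and the annotation used were not given in the sources used here. Per the labels' protocols, the kit was NEBNext Ultra RNA, which does not mark strand. Symbols and exon lengths came from GENCODE M21 on GRCm38, and 52135 of 55416 identifiers matched. The 3281 others held at most 0.208% of a library's counts.

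Differences were tested with edgeR 4.0.16 in R 4.3.3: TMM scaling, filterByExpr, 1 fit of all 15 libraries with a coefficient per line, the two-sided quasi-likelihood test and Benjamini-Hochberg adjustment over 18244 genes. The SE is the size of the log2 fold change divided by the square root of F. Per-kilobase values divide CPM by the length of the union of exons. The method was run on simulated counts with known changes. Far fewer genes changed there than were called here, so that run does not test the scaling in these data. Over genes with at least 20 counts, pairs of libraries within a line had a chi-square per degree of freedom of 5.47 to 53.4, beyond sampling noise, so none was taken for a library deposited in duplicate. Whether they were separate cultures is not shown by this. Alternatives were DESeq2 1.42.0, limma-voom 3.58.1, other scalings and filters, a replicate block, only the lines compared, and leaving out libraries. Labels give no batch.

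The genes and lists were chosen with earlier results of these data known. Full values were given for the 5 marker genes of the selection (Slc7a1, Slc7a5, Slc7a11, Slc6a9 and Slc38a1), the heavy chains, genes of at least 10 CPM in any line and, per comparison, the 5 largest called changes per direction among genes of at least 1 CPM. One gene that meets this rule is counted in the totals, but its own values are not reported here. Other genes given with values were chosen after these were seen. Figures were drawn with matplotlib.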

Additional observations from a re-analysis of the deposited data

Results flagged for a closer look

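Within the 5 libraries of a line, 84 groups of values (28 genes in 3 lines) were checked for a library that stood apart, with a gap to its neighbour above Dixon's critical share of 0.71 of the range. This marked 6 groups, where chance marks about 1 in 20. Slc1a4 in Atf4 replicate 5 was at 80.6 CPM, with the next Atf4 library at 59.5 CPM. Slc38a2 in the same library was at 134.6 CPM, with the next at 105.9 CPM, and this library also had the highest Atf4 mRNA. Slc38a1 in Atf4 replicate 1 was at 2.146 CPM, with the next at 1.53 CPM. In the control line Slc38a2 was at 77.5 CPM in replicate 4 and at 73.95 CPM or less in the others. Slc6a8 was at 91.38 CPM in control replicate 5, against 86.2 CPM in the next library, and Slc6a9 at 8.029 CPM in control replicate 1, against 7.29 CPM.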

How the results depend on the processing

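Each count of called transporters stayed within 1.5 times its value under the 24 alternatives. In the Atf3 line against control it was 16 to 19 higher and 12 to 19 lower, in the Atf4 line against control 17 to 19 higher and 10 to 14 lower, and in the Atf4 line against the Atf3 line 13 to 18 higher and 8 to 11 lower. Of 105 gene and comparison pairs, 12 changed their call, or their direction with a call, under at least 1 alternative. In 9 pairs the sign turned under at least 1 alternative with no call on either side: Slc1a2, Slc1a3, Slc38a3, Slc3a2, Slc6a8 and Slc7a11 in the Atf4 line against the Atf3 line, Slc38a7 and Slc6a6 in the Atf3 line against control, and Slc1a1 in the Atf4 line against control. The one change of direction with a call came with plain library totals, which moved the median log2 fold change of all genes to -0.155 in the Atf3 line against control, -0.037 in the Atf4 line against control and 0.108 in the Atf4 line against the Atf3 line. Called genes were then 5214 higher and 8358 lower, 5298 and 6034, and 6196 and 2369, where TMM gave 6721 and 6630, 5821 and 5425, and 3595 and 4363. Under plain totals Slc6a8 in the Atf4 line was at 0.09201 against the Atf3 line (adjusted p = 0.0234). Slc6a11 in the Atf3 line against control (0.14) and Slc7a6 (-0.15) in the Atf4 line against the Atf3 line lost their calls under plain totals.

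The replicate numbers did not pair the libraries: deviations of same-numbered libraries correlated at -0.0791 to 0.0985 over 15 pairs, and 3 pairs correlated best with their own number. With a replicate block the counts were 18 higher and 14 lower, 18 and 12, and 14 and 10, in the same order of comparisons. Depth limits the 27 genes that were not tested, and intervals of the low genes cover spread between libraries that may be technical.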
